A study of Homo sapiens with 4 samples.

Results

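RNA-Seq counts of HGC-27 cells were examined for 10 genes of the NF-kB pathway, of 63568 gene identifiers counted in each library. The genes were chosen by name and role, with earlier results of these data known. They were the 5 genes of the NF-kB subunits (NFKB1, NFKB2, REL, RELA and RELB) and 5 genes that NF-kB is known to induce and that act back on the pathway (NFKBIA, NFKBIE, TNFAIP3, BIRC3 and TRAF1). All 10 symbols were found among the identifiers, and 9 passed the filter on low counts. TRAF1 did not pass. The HGC-27 line comes from a gastric carcinoma. Cells of both groups were infected with lentivirus that expressed an shRNA from the pLKO.1 plasmid and selected with puromycin, and there were 2 libraries with control shRNA (scrambled) and 2 with shRNA against USP47, a deubiquitinase. The labels do not say whether both knockdown libraries carry the same shRNA. The comparison asks whether genes of the NF-kB system itself moved when USP47 was reduced, beside a wider list of TNF-alpha response genes.

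NF-kB proteins are dimers of Rel-family subunits. RELA, RELB and REL carry transactivation domains, whereas NFKB1 and NFKB2 encode precursors that are processed to the DNA-binding subunits p50 and p52. Inhibitory IkB proteins such as those of NFKBIA and NFKBIE hold the dimers in the cytoplasm until the IKK kinases mark them for ubiquitination by the SCF beta-TrCP ligase and for degradation. In the noncanonical arm the kinase NIK (MAP3K14) drives processing of NFKB2, which frees dimers of p52 with RELB, and TRAF3 keeps NIK low in resting cells. Many of the genes that NF-kB induces encode its own subunits and brakes, so their mRNA is often read as an output of the pathway.

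NF-kB dimers bind DNA at kappa-B sites, and such sites in the promoters of the 10 genes are shown first because they are what makes a gene a candidate for feedback. Promoter windows from RefSeq (GRCh38.p14) were at hand for 8 of the 10 genes, with 14 windows in all because some genes have several starts, but not for RELB and NFKBIE. The 250 bases before each start were searched on both strands for the kappa-B consensus. It was found for 6 genes, in 7 of the 14 windows, and in 5.21% of all 35116 windows of the same length. The looser pattern GGGNNNNNCC, which every match of the consensus also fits, was in 12 of the 14 windows and in 54.4% of all windows. No window of RELA or TRAF1 held the consensus. Some of the genes were chosen because NF-kB is known to induce them, so the shares beside all windows are no test of enrichment. Windows of the same gene are not independent. A match is a run of letters and not a measured binding site. Of the 13 matches, 8 are given below on the strand of the gene, with the consensus in capitals and 10 bases on each side.

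NFKB1, chr4:102501300-102501329, plus strand: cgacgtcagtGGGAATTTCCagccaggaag

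NFKB2, first site, chr10:102394461-102394490, plus strand: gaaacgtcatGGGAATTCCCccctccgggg

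NFKB2, site nearest to a start, chr10:102395674-102395703, plus strand: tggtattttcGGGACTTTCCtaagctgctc

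REL, chr2:60881517-60881546, plus strand: cgtcagccgcGGGAAATTCCcctcccgcca

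NFKBIA, chr14:35404811-35404840, minus strand: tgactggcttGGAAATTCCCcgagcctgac

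TNFAIP3, distal site, chr6:137867182-137867211, plus strand: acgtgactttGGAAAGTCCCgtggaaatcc

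TNFAIP3, proximal site, chr6:137867194-137867223, plus strand: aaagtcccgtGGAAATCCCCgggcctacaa

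BIRC3, chr11:102317275-102317304, plus strand: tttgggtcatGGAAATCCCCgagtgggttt

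The NFKB1 site ended 40 bases before the start, the REL site 38 bases and the NFKBIA site 72 bases. The REL run and the first NFKB2 run each overlap a further match on the other strand, offset by 1 base.

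Total counts on genes were between 15649899 and 20140273 per library. USP47 was at 80.0 and 66.1 CPM (the count scaled to the size of its library, with TMM factors) with control shRNA and at 36.0 and 21.5 CPM with USP47 shRNA, which left 49.3% and 29.5% of the mean control level. Its exons share 41.4% of their bases with DKK3 on the opposite strand. Of 2 mesenchymal markers VIM had at least 7201 counts in every library. CDH2 had 3 and 3 counts with control shRNA and 10 and 3 with USP47 shRNA and was not tested. Of 5 epithelial markers KRT18 and KRT19 had 0 or 1 count, and KRT8 had 10 to 19, although keratin reads can be lost to near-identical pseudogenes. EPCAM had 12 and 11 counts with control shRNA and 3 and 3 with USP47 shRNA and was called lower (adjusted p = 0.0418). The DESeq2 Wald test gave it no adjusted p, and its unadjusted p there was 0.0985. CDH1 had 13 and 12 counts against 28 and 8 and was not called. The summed level of the 5 was 2.06 and 2.24 CPM against 2.02 and 1.46 CPM. The endothelial gene CDH5 had at most 2 counts. The part of these markers in the results below was not tested. In bulk RNA, fewer cells of a type and less RNA per cell cannot be told apart.

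RELB and RELA rose in the knockdown and NFKBIE fell, while the other 6 tested genes did not pass the test. RELB was 2.87-fold and RELA 1.53-fold the control level, and NFKBIE was at 0.518 of it. Of the 9 genes tested, 2 (22.2%) were called higher, beside 6.52% of all 21932 genes tested, and 1 (11.1%) was called lower, beside 9.56% of all genes. A gene was called where the quasi-likelihood test of edgeR gave a p under 0.05 after Benjamini-Hochberg adjustment over all genes, and every adjusted p below is from that test unless another is named. The median log2 fold change was 0.27 over the 9 genes and -0.0083 over all genes. In 6 of the 9 genes both knockdown libraries lay above both control libraries, an order held by 29.3% of all genes tested, and in 1 gene they lay below, an order held by 31.7%. The labels name the 2 libraries of a group biological duplicates, and all values of a group have n = 2. The study's methods describe more replicates per group and another library kit than the labels.

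**Figure D1:**
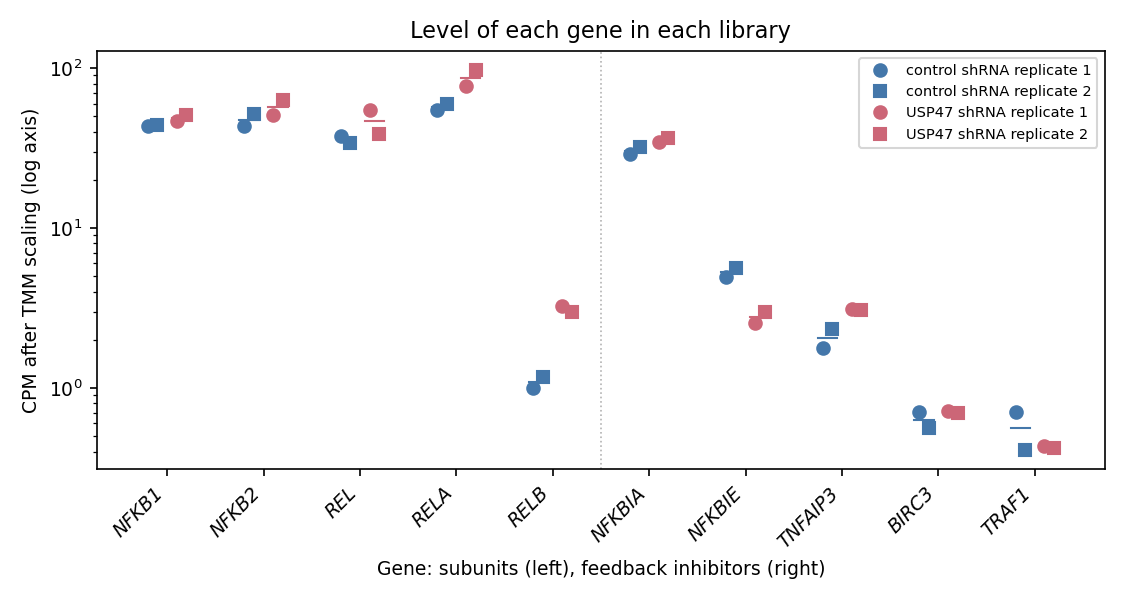
Level of each of the 10 genes in each of the 4 libraries, in CPM after TMM scaling on a log axis. Points are libraries (blue, control shRNA, and red, USP47 shRNA), and short lines are group means. RELB is separated upward, at 1.00 and 1.17 CPM against 3.27 and 3.00, and NFKBIE downward, at 4.95 and 5.66 CPM against 2.55 and 3.00.

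RELB encodes the subunit that pairs mostly with p52. Its counts were 17 and 23 with control shRNA and 68 and 43 with USP47 shRNA, which came to 1.00 and 1.17 CPM against 3.27 and 3.00 CPM. The lower knockdown library was above the higher control library by more than the gap within either group. The log2 fold change was 1.52 (standard error 0.26, 95% interval 0.94 to 2.10, adjusted p = 0.00502). RELB kept its call in all 7 alternative fits and in all 4 fits that left out 1 library, in which its log2 fold change lay from 1.42 to 1.64. The gene lies on chromosome 19 of GRCh37, from 45504719 to 45541450.

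RELA encodes p65, the main transactivating subunit of the canonical dimer, and it was the most highly counted of the 10 genes. Its level was 54.3 and 59.4 CPM with control shRNA and 77.0 and 97.5 CPM with USP47 shRNA. The groups did not overlap, although the knockdown libraries stood further apart than the controls. The log2 fold change was 0.62 (standard error 0.15, 95% interval 0.29 to 0.94, adjusted p = 0.0193). The call held in all 7 alternative fits but was lost without control shRNA replicate 1 (adjusted p = 0.253) and without control shRNA replicate 2 (adjusted p = 0.0914), in fits where the lone control library is assumed to vary like the other group. RELA lies on chromosome 11 of GRCh37, from 65421070 to 65430561, and 1.89% of its exonic bases are shared with RELA-DT on the opposite strand.

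NFKB1, NFKB2 and REL were not called. For NFKB1, the gene of p50, the levels were 43.2 and 44.2 CPM with control shRNA and 46.6 and 51.2 CPM with USP47 shRNA, so the groups did not overlap but lay closer together than the knockdown libraries lay to each other. The interval of its log2 fold change was -0.12 to 0.44 (adjusted p = 0.407). NFKB2, the gene of p52 and the partner of RELB, was at 43.6 and 51.4 CPM against 51.1 and 63.5 CPM. Here 1 knockdown library lay just under the higher control, and the log2 fold change was 0.27 (95% interval -0.062 to 0.60, adjusted p = 0.241). NFKB2 passed the test without USP47 shRNA replicate 1 (log2 fold change 0.43, adjusted p = 0.00240), but its log2 fold change was 0.11 (adjusted p = 0.541) without replicate 2 of that group and 0.16 (adjusted p = 0.815) without control shRNA replicate 1.

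REL encodes c-Rel, a subunit best known from lymphocytes. With control shRNA it was at 37.7 and 33.9 CPM, and with USP47 shRNA at 54.7 and 38.6 CPM. Replicate 1 of the knockdown carried most of the difference, and replicate 2 sat close to the higher control. The log2 fold change of 0.39 had a standard error of 0.17 and an adjusted p of 0.144. Without USP47 shRNA replicate 2 it was 0.62 (adjusted p = 6.64e-06), and it came to 0.12 without USP47 shRNA replicate 1. A noncoding RNA on the same strand (ENSG00000267520) covers 33.3% of the exonic bases of REL, so these counts may be split between the 2 genes.

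**Figure D2:**
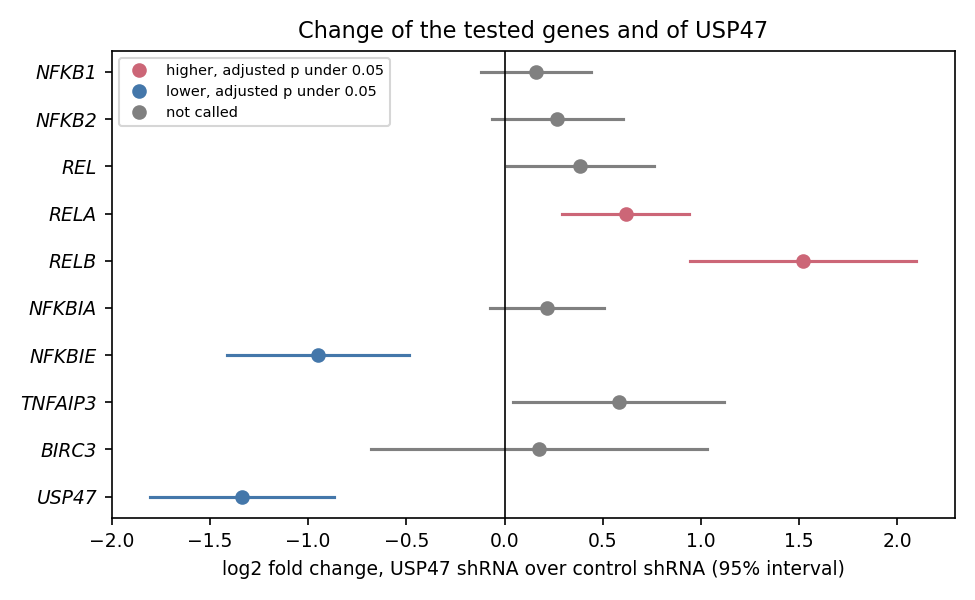
Log2 fold change of USP47 shRNA over control shRNA for the 9 tested genes and for USP47, with bars for the 95% interval of edgeR's quasi-likelihood fit and color for the call. RELB at 1.52 and RELA at 0.62 are called higher, NFKBIE at -0.95 and USP47 at -1.34 are called lower, and the interval of BIRC3 spans -0.68 to 1.03.

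Between genes, levels are compared in TPM (a level scaled to library size and to gene length). In control cells NFKBIA had the highest TPM of the 10 genes (17.8 and 17.2), followed by RELA (14.5 and 13.9) and NFKB2 (14.2 and 14.7), whose order changed between the control libraries. NFKB1 came next (10.1 and 9.07), then REL (4.88 and 3.86) and NFKBIE (2.82 and 2.84). TNFAIP3 (0.513 and 0.599) and RELB (0.482 and 0.496) were close together, and TRAF1 and BIRC3 were the lowest, at no more than 0.160 TPM in a control library. RELB was a small minority of the subunit mRNA. With USP47 shRNA the TPM of RELB was 1.56 and 1.07, above TNFAIP3 (0.902 and 0.662), and that of NFKBIE was 1.45 and 1.27.

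As shares of the summed TPM of the 5 subunits, a measure that does not depend on how the libraries are scaled, RELA made up 32.9% and 33.1% with control shRNA and 36.2% and 40.0% with USP47 shRNA. RELB made up 1.09% and 1.18% against 2.77% and 2.21%. NFKB1 made up 22.8% and 21.5% with control shRNA and 19.2% and 18.3% with USP47 shRNA. The share of NFKB2 was 32.2% and 35.0% against 29.3% and 31.8%, and that of REL was 11.1% and 9.18% against 12.5% and 7.68%, where the groups overlap. In RELA, RELB and NFKB1 the groups did not overlap, and in NFKB2 they did not either, by a narrow margin. With 2 libraries per group such separation is common. In CPM, both knockdown libraries lay above both controls in 29.3% of all genes tested and below them in 31.7%. The shares of a library always make up its whole sum, so a higher share of RELA lowers the other shares. A lower share is therefore not a lower level. In CPM, NFKB1 was at 43.2 and 44.2 against 46.6 and 51.2, and NFKB2 at 43.6 and 51.4 against 51.1 and 63.5. No test was run on these shares.

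**Figure D3:**
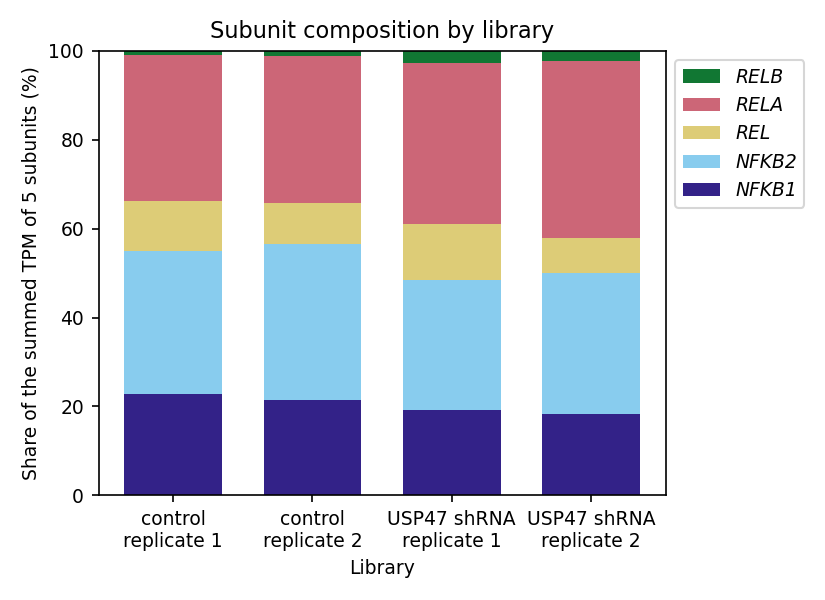
Share of each subunit gene in the summed TPM of the 5 subunit genes, in percent, 1 bar per library. RELA takes 32.9% and 33.1% of the control bars and 36.2% and 40.0% of the USP47 shRNA bars, and RELB takes 1.09% and 1.18% against 2.77% and 2.21%.

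Of the 2 IkB genes NFKBIE fell and NFKBIA was not called. The difference between them was not tested. NFKBIE encodes IkB-epsilon, an IkB that NF-kB induces later than IkB-alpha. Its counts were 84 and 111 with control shRNA and 53 and 43 with USP47 shRNA, or 4.95 and 5.66 CPM against 2.55 and 3.00 CPM, with no overlap. The log2 fold change was -0.95 (standard error 0.21, 95% interval -1.41 to -0.49, adjusted p = 0.0144). It was not called by the DESeq2 Wald test (adjusted p = 0.0703) or without control shRNA replicate 2 (log2 fold change -0.85, adjusted p = 0.121). NFKBIE lies on chromosome 6 of GRCh37, from 44225903 to 44233525.

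NFKBIA encodes IkB-alpha, the inhibitor that is degraded and resynthesized first when NF-kB is activated. Its level was 29.1 and 31.9 CPM with control shRNA and 34.3 and 36.6 CPM with USP47 shRNA. Both knockdown libraries lay slightly above both controls, and the difference did not pass the test (log2 fold change 0.22, 95% interval -0.074 to 0.51, adjusted p = 0.281). Per 100 counts of NFKBIA in the same library, NFKBIE had 17.0 and 17.7 counts in the controls and 7.43 and 8.17 counts in the knockdown. This ratio does not depend on the scaling of the libraries, and its groups did not overlap. It restates the counts of both genes, where NFKBIE was lower and NFKBIA slightly higher, so its separation is no further evidence. Per 100 counts of NFKBIA, RELA had 187 and 186 counts in the controls and 225 and 266 in the knockdown.

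TNFAIP3 encodes A20, a ubiquitin-editing enzyme that shuts off signaling from TNF receptors. It was at 1.77 and 2.34 CPM in control libraries and at 3.12 and 3.07 CPM in knockdown libraries, from 30 and 46 counts against 65 and 44 counts. The knockdown libraries lay together above both controls, which stood further apart. The log2 fold change was 0.58 (standard error 0.24, 95% interval 0.045 to 1.11) with an adjusted p of 0.127, and the adjusted p lay between 0.0510 and 0.407 over the 7 alternatives.

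BIRC3 and TRAF1, which encode the ubiquitin ligase cIAP2 and an adaptor that binds it at TNF receptors, were close to the limit of detection. BIRC3 had 12 and 11 counts against 15 and 10, and its interval of -0.68 to 1.03 on the log2 scale leaves room for a change in either direction (adjusted p = 0.793). TRAF1 had 12 and 8 counts against 9 and 6. With no filter on low counts its log2 fold change was -0.38 (95% interval -1.41 to 0.64, adjusted p = 0.641). Both genes are known as strongly inducible by NF-kB in other cells, and here the highest level in any library was 0.721 CPM for BIRC3 and 0.708 CPM for TRAF1.

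Of 69 genes of the machinery that carries the signal, in 5 lists, 58 were tested, and 5 were called higher (8.62%) and 3 lower (5.17%), beside 6.52% and 9.56% of all genes. The median log2 fold change of the 58 was 0.13. The count of higher genes was 0 and 3 in the fits without control shRNA replicate 1 and replicate 2, and 15 and 11 in those without USP47 shRNA replicate 1 and replicate 2. The count of lower genes was 7 without USP47 shRNA replicate 1 and 6 without replicate 2.

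In a list of ubiquitin enzymes and their binding partners 15 genes were tested, of which 4 were called higher (26.7%, beside 6.52% of all genes) and 0 lower. At an unadjusted p under 0.05, 5 were higher and 1 was lower. DESeq2 called 4 higher and 0 lower. RNF11, a RING protein of the A20 complex, was at 29.8 and 34.1 CPM with control shRNA and 50.4 and 57.2 CPM with USP47 shRNA (log2 fold change 0.75, adjusted p = 0.00672). TNIP2 and TNIP1, ubiquitin-binding partners of A20, rose with log2 fold changes of 0.72 (adjusted p = 0.0101) and 0.52 (adjusted p = 0.0392). CYLD, a deubiquitinase that removes chains needed for IKK activation, rose with a log2 fold change of 0.58 (adjusted p = 0.0180). The remaining members of the A20 complex, TAX1BP1 (0.25, adjusted p = 0.324) and ITCH (0.19, adjusted p = 0.325), and the deubiquitinases OTULIN (-0.16, adjusted p = 0.409) and USP21 (-0.020, adjusted p = 0.938) were not called. In all 4 called genes both knockdown libraries lay above both controls, an order held by 29.3% of all genes tested. A gene called higher nearly always has this order, so it adds nothing to the calls.

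Of 4 other IkB-family genes 1 was called higher (25%, beside 6.52% of all genes) and 0 lower. The called gene was BCL3, a nuclear IkB that works as a coactivator with p50 and p52 dimers. It rose from 5.48 and 5.96 CPM to 9.76 and 11.0 CPM (log2 fold change 0.85, standard error 0.17, adjusted p = 0.00969). NFKBIB (-0.062), NFKBID (-0.13) and NFKBIZ (0.36) were not called.

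Of 20 tested receptors and adaptors 2 were called lower (10%, beside 9.56% of all genes) and 0 higher. TRAF3 fell from 79.5 and 84.6 CPM to 48.5 and 44.6 CPM (log2 fold change -0.82, standard error 0.13, adjusted p = 0.00328). The drop was larger than the gap within either group. TNFRSF11A, the receptor RANK, fell from 3.83 and 3.77 CPM to 1.44 and 1.81 CPM (log2 fold change -1.24, adjusted p = 0.00828). The TNF receptor TNFRSF1A (0.15, adjusted p = 0.495) and its partners RIPK1 (0.36, adjusted p = 0.0825) and TRAF2 (-0.26, adjusted p = 0.195) were not called.

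Of 10 tested kinases and their partners 1 was called lower (10%, beside 9.56% of all genes) and 0 higher. The called gene was MAP3K7, which encodes the IKK-activating kinase TAK1. It went from 32.4 and 31.4 CPM to 22.2 and 19.4 CPM (log2 fold change -0.61, adjusted p = 0.0153). CHUK and IKBKB, the genes of the catalytic IKK subunits, had log2 fold changes of -0.16 and 0.14 and MAP3K14 one of -0.11, none of them called. IKBKG and IKBKE were listed at 0 in every library under the identifiers matched to them, as was OTUD7B, and no level is read from that. None of 9 genes of the SCF beta-TrCP ligase was called by edgeR or by the DESeq2 Wald test, and at an unadjusted p under 0.05 1 was higher and 1 lower. The F-box genes BTRC (0.29, adjusted p = 0.137) and FBXW11 (-0.21, adjusted p = 0.263) were not called and lay on either side of 0. Beta-TrCP is a known binding partner of USP47.

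Ligands that start the signal were counted little. TNF had 2 counts in 1 control library and 0 in the other libraries, and LTA had at most 1 count. Of 12 ligands 5 were tested, of which 1 was called lower (20%, beside 9.56% of all genes) and 0 higher. IL1A, IL1B, LTB and IL18 had between 7 and 26 counts in every library and were not called. TNFSF10, the gene of TRAIL, was called lower, from 29 and 28 counts to 11 and 8 (log2 fold change -1.52, standard error 0.34, adjusted p = 0.0161). The DESeq2 Wald test gave it no adjusted p, and its unadjusted p there was 0.0278.

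**Figure D4:**
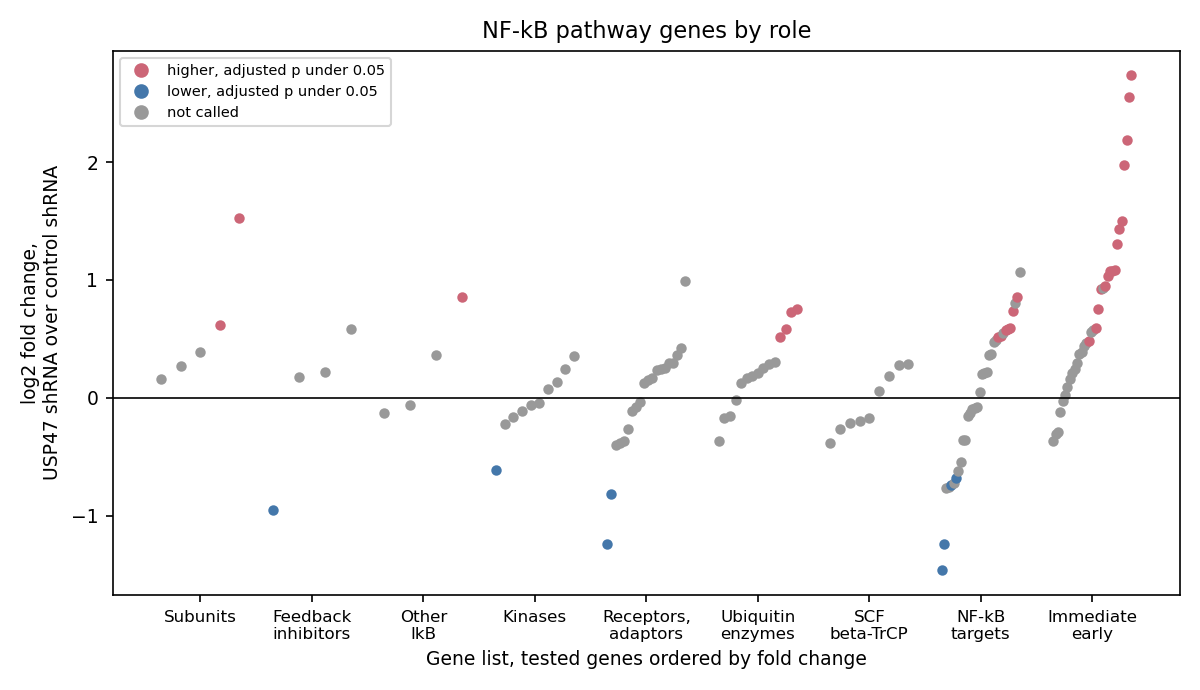
Log2 fold change of USP47 shRNA over control shRNA for every tested gene of 9 lists, each point a gene, ordered within its list and colored by the call. The list of ubiquitin enzymes and their binding partners holds 4 called genes, all higher, and receptors and adaptors hold 2, both lower. The NF-kB target genes hold 7 higher and 4 lower, and the immediate-early list holds 16 higher and 0 lower. Of all genes tested 6.52% were called higher and 9.56% lower.

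Of 67 genes known as direct NF-kB targets, other than the 10, 34 were tested, of which 7 were called higher (20.6%, beside 6.52% of all genes), 4 lower (11.8%, beside 9.56%) and 23 not. Their median was 0.12 on the log2 scale. The higher genes were BCL3, SDC4, CYLD, CSF1, IRF1, IRF2 and TNIP1. Of these BCL3, CYLD and TNIP1 are also 3 of the 5 higher genes of the machinery above, since the lists share 11 genes, and they are not separate findings. SDC4, a cell-surface proteoglycan, went from 12.9 and 13.1 CPM to 19.2 and 24.4 CPM (log2 fold change 0.74, adjusted p = 0.0134), and CSF1, a macrophage growth factor, from 17.6 and 20.6 CPM to 29.0 and 27.9 CPM (0.58, adjusted p = 0.0225). The genes called lower were PSMB9, an immunoproteasome subunit (log2 fold change -1.46, adjusted p = 0.00317), VCAM1, an adhesion molecule (-0.68, adjusted p = 0.00823), GCH1, which starts tetrahydrobiopterin synthesis (-0.74, adjusted p = 0.0234), and NOS2, the inducible nitric oxide synthase (-1.24, adjusted p = 0.0369). NOS2 had few counts, 22 and 35 with control shRNA against 15 and 8 with USP47 shRNA. The DESeq2 Wald test called 2 of the target genes lower. The adhesion gene ICAM1, for which 40 and 49 counts stood against 41 and 38, was not called (-0.099, adjusted p = 0.820).

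Most chemokines of the list were at or near 0 counts. CXCL1, CXCL2, CXCL3, CXCL10, CCL5 and CCL20 had at most 1 count in any library, and CXCL8 had 9 and 4 counts against 8 and 5. CCL2 had 63 and 82 counts against 38 and 43 (log2 fold change -0.75, adjusted p = 0.0753). The count of target genes called higher was 0 without control shRNA replicate 1, 1 without control shRNA replicate 2, 11 without USP47 shRNA replicate 1 and 4 when libraries were scaled by size alone. The count called lower was 2, 1 and 7 without control shRNA replicate 1, control shRNA replicate 2 and USP47 shRNA replicate 2.

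All 10 genes belong to a list of 200 genes that was written from memory after the hallmark set of TNF-alpha signaling via NF-kB. Without the 10, 143 genes of that list were tested, of which 35 were called higher (24.5%) and 7 lower (4.90%). Their median log2 fold change was 0.30. Of all genes tested 6.52% were called higher and 9.56% lower, with a median of -0.0083. The lists were chosen with earlier results of these data known. A list of 38 genes was taken here as immediate-early, and nearly all of them are on the hallmark list. Immediate-early genes are induced by growth factors and stress as well as by TNF-alpha. On this list 34 genes were tested, of which 16 were called higher (47.1%, beside 6.52% of all genes) and 0 lower. Their median was 0.57 on the log2 scale. At an unadjusted p under 0.05, 1 of them was lower, and the DESeq2 Wald test called 0 lower. Without the 10 and the genes taken here as immediate-early, 110 genes were tested, 19 were called higher (17.3%) and 7 lower (6.36%). The median log2 fold change of these 110 was 0.18. These values depend on which genes were put on the immediate-early list, and the remainder may still hold rapidly induced genes. The leading immediate-early genes FOSB (log2 fold change 2.73, standard error 0.24) and FOS (2.55, standard error 0.25) changed by more than RELB (1.52, standard error 0.26), the largest change among the 9 tested. On the same list MXD1 (1.30), a MYC antagonist, and then JUN (1.97) came next in the order of p. Lower genes of the list included TUBB2A (-0.69), TNFAIP8 (-0.59) and IL6ST (-0.70), beside NFKBIE.

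Likeness of profile was measured as the root mean square difference of the centered log2 CPM over the 4 libraries, against 130 genes of the TNF-alpha list that reached 1 or more in average log2 CPM. The nearest to NFKB1 were TSC22D1 (0.016), SLC2A3 (0.023) and RCAN1 (0.045). RCAN1 (0.019), PFKFB3 (0.039) and SLC2A3 (0.051) were nearest to NFKBIA, and CEBPD (0.056), CSF1 (0.057) and ZC3H12A (0.062) to TNFAIP3. With 4 libraries such a ranking is a description only.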

How the data were processed

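RNA of HGC-27 cells with control or USP47 shRNA was sequenced in 2 libraries per group. The authors trimmed reads, aligned them with STAR 2.7.5c to hg19, removed duplicates with SAMtools 1.9 and deposited whole-number counts per gene for each library. The authors also deposited TPM per gene, used here only to compare genes and for shares within a library. FPKM was not used. The annotation version and strand setting of the counting are not given in the sources used here. The submitters' processing notes list featureCounts.

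Of 63568 identifiers, 55665 matched a symbol. Counts were tested with edgeR 4.0.16 (R 4.3.3): TMM scaling, filterByExpr, robust quasi-likelihood test, Benjamini-Hochberg adjustment over 21932 genes, call at an adjusted p under 0.05. The standard error is the log2 fold change divided by the root of F. The test was run on simulated data first. Alternatives were DESeq2 1.42.0, the older quasi-likelihood method, other scalings and filters, a replicate block and leaving out each library. Loci and exon overlaps came from GENCODE 44 on GRCh37.

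The members and gene lists were chosen with earlier results of these data known. Named were the 10 members, USP47, up to 4 genes per list and direction with the smallest p among those called, and for NFKB1, NFKBIA and TNFAIP3 the 3 nearest profiles. Further genes were named for their known roles, or as the rest of a short count, after their values were seen. The leukocyte marker list is not reported here.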

Additional observations from a re-analysis of the deposited data

How the results depend on the processing

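All 9 tested members kept the sign of their log2 fold change in every alternative fit and in every fit without 1 library. Calls among the members went from 2 higher to 4 with the replicate block, which added NFKB2 (adjusted p = 0.0365) and REL (adjusted p = 0.00396), and from 1 lower to 0 with the DESeq2 Wald test. Leaving out each library in turn gave 1 to 3 members higher and 0 to 1 lower. NF-kB target genes called higher, 7 in the report, were 4 with library size alone, 11 with the block and 0 to 11 without 1 library. Those called lower, 4 in the report, were 2 with the DESeq2 Wald test, 7 with the block and 1 to 7 without 1 library. Signaling components called higher, 5 in the report, were 11 with the block and 0 to 15 without 1 library, and those called lower, 3 in the report, were 7 with the block and 2 to 7 without 1 library. The cause of these changes was not tested. The labels give the groups shared replicate numbers but no shared batch, and the deviations of same-numbered libraries had a correlation of 0.213 across genes, so the block result is given as a value only. Over all genes the block called 3529 higher and 3890 lower, and library size alone called 881 higher and 1920 lower, beside 1430 and 2097. With no filter on low counts 1007 were called higher. Without control shRNA replicate 1 and replicate 2, 324 and 408 genes were higher and 909 and 1008 lower. Without USP47 shRNA replicate 1 and replicate 2, 3773 and 2940 were higher and 3499 and 3576 lower. DESeq2 called 1122 higher and 1173 lower. With 2 libraries per group and under 20 counts per library, BIRC3 and TRAF1 carry little information.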
